A study of Homo sapiens with 6 samples.

Results

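Readthrough genes were examined in cells labelled HepG2, a human hepatocellular carcinoma line, together with the neighbouring genes from which they are assembled. A member was any row of the deposited gene table named X-Y for which X and Y were themselves listed as genes, and 97 of 27605 rows met this rule. They carried 96 names, since ARMCX5-GPRASP2 had 2 rows with different gene identifiers, and they drew on 191 parent genes, so that 288 genes were members in all. The table describes 95 of the 97 rows as readthrough. The exceptions are PDXDC2P-NPIPB14P and BMS1P4-AGAP5, whose parents also stand in order on 1 strand. At some other rows the name was met without the structure in the annotation used here. PTGER4P2-CDK2AP2P2 had 0% of its exonic bases in either parent, BORCS7-ASMT had 0% in ASMT and TIMM23B-AGAP6 had 0% in AGAP6. A further 65 rows described as readthrough had no pair of listed parents under these names and were not members.

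The series holds 6 libraries of poly(A) RNA, 3 labelled shNC (genotype WT) and 3 labelled shARHGEF2 (ARHGEF2 knockdown). All were grown in the same medium, and the knockdown group received lentivirus with a short hairpin RNA (shRNA) against ARHGEF2, a guanine nucleotide exchange factor that activates RhoA. What the shNC cells received is given by that label alone. The number of hairpins is not given, nor is it said whether libraries came from separate cultures, so that p-values measure the spread between these libraries, which may be technical. Values are FPKM, fragment counts scaled to the length of the transcript and to the size of the library, a level that is already divided by length.

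A readthrough RNA arises when RNA polymerase II passes the poly(A) signal of an upstream gene and goes on into the next gene on the same strand. Splicing then joins exons of the upstream gene to exons of the downstream gene, usually leaving out the last exon of the former and the first of the latter. Some such RNAs encode fusion proteins, and others hold a premature stop codon, which marks them for nonsense-mediated decay, the pathway that degrades such RNAs. Because a readthrough reuses the exons of its parents, most reads from the locus fit more than 1 gene model, and a transcript assembler divides them by coverage and by the few reads that span a junction found in only 1 of the models.

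The linking junctions are therefore among the sequences by which many of these genes can be told from their parents, beside any other junctions or bases found in neither parent. In GENCODE 29, which is on GRCh38, 94 of the 97 loci had all 3 genes. In 90 of these loci the parents stood in order on 1 strand and the readthrough overlapped both of them. The parents were a median of 6000 bp apart where they did not overlap, and they overlapped in 10 loci. Of the exonic bases of a readthrough, a median of 5.05% lay in neither parent, and 25 readthroughs had no base of their own. A readthrough had a median of 10 splice junctions, of which 2 were in neither parent. At least 1 junction led directly from an exon of the upstream gene to an exon that overlaps the downstream gene in 81 readthroughs, and in 60 of these there was exactly 1. The 108 such junctions were read as runs of 30 bases, and 102 of the runs occurred in the transcripts of 1 gene only. However, 2 of the 108 runs, at BORCS8-MEF2B and SLCO1B3-SLCO1B7, were found in a transcript listed under a parent. The runs of the loci described most closely here are shown 5′ to 3′, with the last 15 bases of the upstream exon in lower case and the first 15 bases of the next exon in capitals.
SENP3-EIF4A1: ctgcaaactcactgtCCAGGGGAATCCTCC
DNAJC25-GNG10: tacgagacactcaagGTCTCTCAGGCAGCT
RAB4B-EGLN2: gctctgtggagccagCCACCCTGAAGGGTC
PTGES3L-AARSD1: atggatgatttggatTTCACCACCACCGTG
NME1-NME2: catacaagttggcagGACCATGGCCAACCT
RPS10-NUDT3: accgaattccagtttGTGCTACTCGTGAGC
PMF1-BGLAP: cagcaggcctggcagGTGCGAAGCCCAGCG
RNASEK-C17orf49: cgcaaggaatacatgGTCGGAGAGATCTTC
ISY1-RAB43: cagaaggctcctgggCTGCAGATCTGGGAC
FAM47E-STBD1: gagctgcaggaacagAGCATCTTCAAGAAA
TNFSF12-TNFSF13: tacctgtactgtcagAGTTCCGATGCCCTG
RPL36A-HNRNPH2: attttccggaaaaagCTACACCAAAATTGC

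Each of these 12 runs occurred in the transcripts of its own readthrough and of no other gene. For PTGES3L-AARSD1, which has 2 linking junctions, the junction of its 2150 nt transcript is shown. In SENP3-EIF4A1 the intron at this junction spans chr17:7571480-7572283 on the plus strand, and the exon that follows starts in the gap between the listed end of SENP3 and the listed start of EIF4A1 and runs on into EIF4A1. The bases in capitals are therefore in neither parent at this locus.

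**Figure D1:**
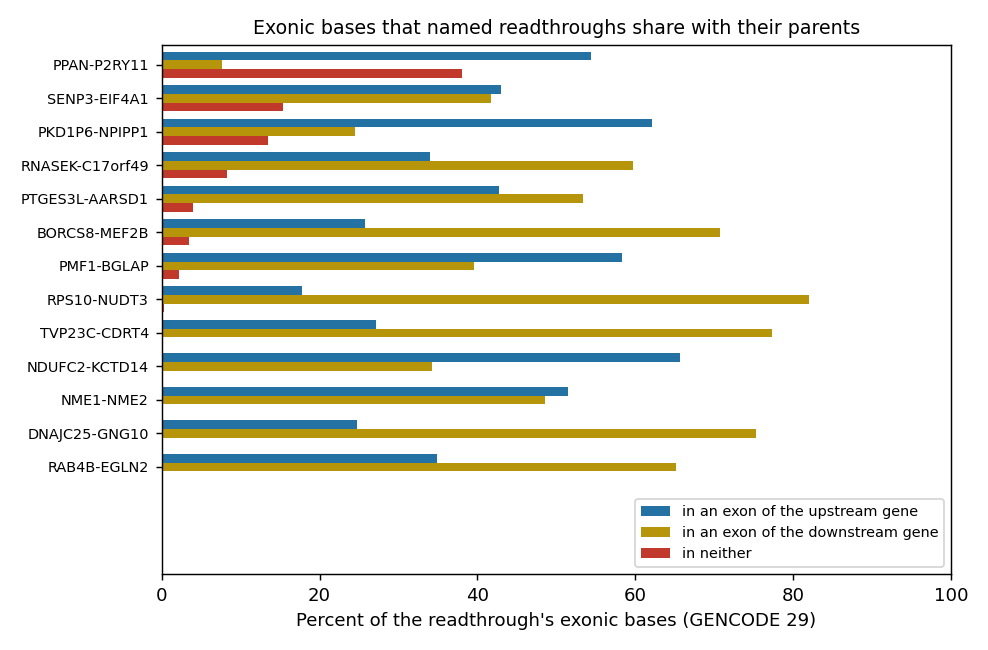
Percent of the exonic bases of 13 readthroughs (horizontal axis) that lie in an exon of the upstream gene, of the downstream gene or of neither, in GENCODE 29. PPAN-P2RY11 (38.0%) and SENP3-EIF4A1 (15.3%) had the largest parts outside both parents, while RAB4B-EGLN2, DNAJC25-GNG10, NME1-NME2, NDUFC2-KCTD14 and TVP23C-CDRT4 had none; where the parents overlap, a base counts for both.

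ARHGEF2 itself was listed at 13.0, 14.4 and 13.9 FPKM in shNC and at 4.25, 4.004 and 4.82 FPKM in shARHGEF2 (log2 fold change -1.47, SE 0.11, adjusted p = 0.00244, limma). Of 14 hepatocyte markers, 7 were in the table, and VTN was the only 1 of these with at least 1 FPKM in every library. Albumin was not listed, and AFP, APOA1 and HNF4A did not exceed 0.0703, 0.248 and 0.0956 FPKM, which goes against the HepG2 label, a line known for these liver proteins. The summed FPKM of the 7 was 5.92 to 6.21 in shNC and 6.67 to 7.58 in shARHGEF2, without overlap. Of the epithelial markers, KRT8, KRT18 and KRT19 were high, while EPCAM and CDH1 did not exceed 0.0547 and 0.0433 FPKM. The summed FPKM of 5 mesenchymal markers was 12.8 to 14.8 in shNC and 15.3 to 16.3 in shARHGEF2, and that of 4 listed leukocyte markers did not exceed 0.284. The part of these marker levels in the results was not tested.

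Most readthroughs were minor RNAs of their loci. The median over the 97 rows of the mean level was 0.316 FPKM, against 2.27 FPKM for the parents and 0.297 FPKM for all genes listed. None was listed at 0 in every library, and 48 were listed at 0 in at least 1 library. On average 27 readthroughs reached 1 FPKM and 5 reached 10 FPKM, namely NME1-NME2, RPS10-NUDT3, RNASEK-C17orf49, PMF1-BGLAP and SENP3-EIF4A1. By mean level the readthrough was the lowest of the 3 genes at 57 loci, the second at 34 and the highest at 6. The 23 rows whose transcripts are all typed as targets of nonsense-mediated decay had a median level of 0.0901 FPKM, and 7 of them passed the filter of a mean of 0.5 FPKM. The 32 rows with only protein-coding transcripts had a median of 0.254 FPKM, and 13 of them passed.

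To ask whether readthrough RNA differed between shARHGEF2 and shNC cells, all genes averaging 0.5 FPKM or more were fitted together on log2(FPKM + 1). Fold changes are on this scale, which understates changes of low genes. Of the 97 readthroughs, 41 passed the filter, and 1 was called at an adjusted p under 0.05, SENP3-EIF4A1, which rose. The call was lost when every gene above 0 was tested (adjusted p = 0.155, limma) and with the library number as a block (adjusted p = 0.124, limma). Over all 12291 genes tested, 34 were called (0.277%). At an unadjusted p under 0.05, 4 of the 41 readthroughs passed, 2 higher and 2 lower, which is 9.76% of them against 13.7% of all genes. The groups did not overlap for 5 of the 41, or 12.2%, against 20.5% of all genes. SENP3-EIF4A1 and RAB4B-EGLN2 were the 2 with every shARHGEF2 library above every shNC library, and PTGES3L-AARSD1, DNAJC25-GNG10 and NME1-NME2 were the 3 with every shARHGEF2 library below. Among the parents, 133 of 191 passed the filter and 0 were called by limma. At an unadjusted p under 0.05, 17 parents passed, 3 higher and 14 lower (12.8%, against 13.7% of all genes). In bulk RNA, fewer cells of a kind and less RNA per cell cannot be told apart, and this holds for each level given.

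SENP3-EIF4A1 (ENSG00000277957) spans chr17:7563287-7578715 on the plus strand of GRCh38. It joins SENP3, a protease that removes SUMO from nuclear and nucleolar proteins, to EIF4A1, the RNA helicase of the cap-binding complex eIF4F. Its only listed transcript is 3519 nt long, is typed as a target of nonsense-mediated decay, and has 20 junctions, of which 1, the linking junction printed above, is in neither parent. The level of the readthrough was 2.77, 2.53 and 1.83 FPKM in shNC and 21.3, 36.1 and 43.9 FPKM in shARHGEF2. Every shARHGEF2 library was far above every shNC library, and the shARHGEF2 libraries also differed among themselves, by more than the whole shNC level. The means were 2.37 ± 0.489 and 33.7 ± 11.5 FPKM (SD, n = 3 each), a ratio of 14.2, with a log2 fold change of 3.32 (SE 0.25, adjusted p = 0.00554, limma). The exact permutation test gave p = 0.1 (two-sided), the smallest p that 3 against 3 libraries allow.

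Both parents were lower in every shARHGEF2 library than in any shNC library, without passing the test. EIF4A1 was listed at 70.0, 77.2 and 83.4 FPKM in shNC and at 55.7, 50.8 and 50.4 FPKM in shARHGEF2. The log2 fold change was -0.54 (SE 0.10, adjusted p = 0.0721, limma). SENP3 was listed at 65.4, 59.6 and 65.3 FPKM in shNC and at 56.2, 56.2 and 58.1 FPKM in shARHGEF2, and its log2 fold change was -0.15 (SE 0.08, adjusted p = 0.453, limma). The readthrough was thus the lowest of the 3 genes in all 6 libraries, including those in which it was highest.

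**Figure D2:**
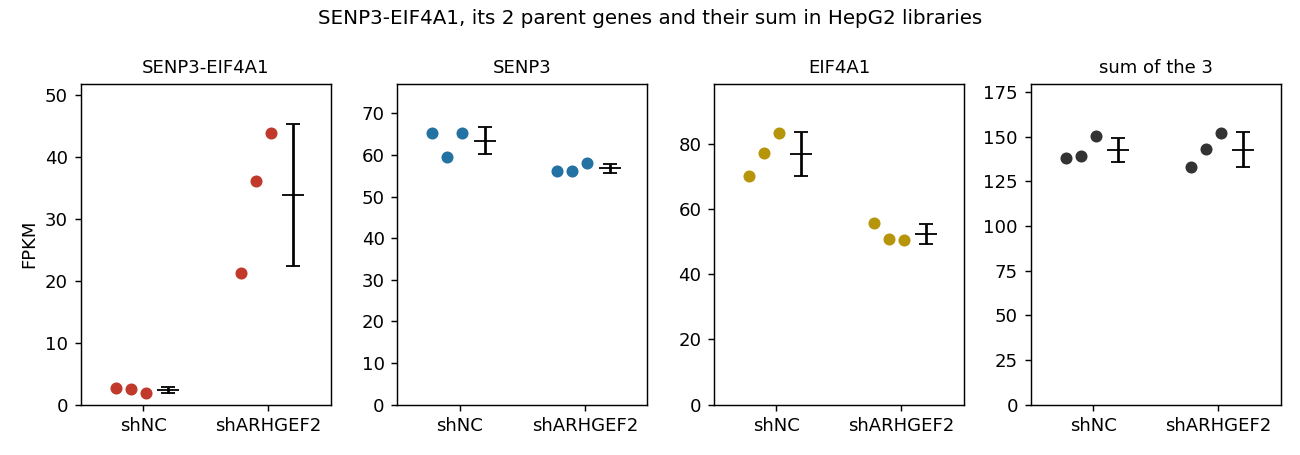
FPKM of SENP3-EIF4A1, SENP3, EIF4A1 and their sum (vertical axes, each from 0) in 3 shNC and 3 shARHGEF2 libraries; points are libraries, black marks are means with SD (n = 3). The readthrough went from 2.37 to 33.7 FPKM, EIF4A1 from 76.8 to 52.3 FPKM, and the sum stood at 142.7 and 142.9 FPKM.

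Added together, the 3 genes of the locus gave 138.1, 139.3 and 150.5 FPKM in shNC and 133.2, 143.1 and 152.4 FPKM in shARHGEF2. The groups overlapped widely, and the log2 fold change of the sum was 0.0014 (SE 0.09, adjusted p = 0.998, limma on the table with summed loci). The share of this sum listed under the readthrough was 2.00%, 1.81% and 1.21% in shNC and 15.99%, 25.2% and 28.8% in shARHGEF2. In means this was 1.68% ± 0.412 and 23.3% ± 6.603 (SD, n = 3 each; exact permutation p = 0.1), a difference of 21.6 percentage points. On the FPKM scale the groups were thus apart in how the locus was divided between its gene models and overlapped in its sum.

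The flat sum depended on the scale. FPKM divides by length, so that 1 FPKM of a 3519 nt readthrough stands for more fragments than 1 FPKM of a shorter parent. When each FPKM was multiplied by the mean length of the gene's listed transcripts, 3519 nt for the readthrough, 1008 nt for SENP3 and 833 nt for EIF4A1, the sum was 1.61 times as high in shARHGEF2 as in shNC. Its log2 fold change was then 0.67 (adjusted p = 0.0976, limma), and the share of the readthrough was 6.16% ± 1.44 and 52.9% ± 9.64. With the longest listed transcripts, 2611 nt for SENP3 and 1756 nt for EIF4A1, the ratio of the sums was 1.16 (log2 fold change 0.21, adjusted p = 0.387, limma) and the shares were 2.72% ± 0.646 and 32.5% ± 8.12. The share of the readthrough was higher in every shARHGEF2 library than in any shNC library on all 3 scales. This had to be so under any length weights, since the readthrough was higher and both parents lower in every shARHGEF2 library. The 3 scales are therefore no separate support for it. The weighted sums and the weights by longest transcript were chosen after the data were seen.

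RAB4B-EGLN2 (ENSG00000171570) links RAB4B, a small GTPase of endosome recycling, to EGLN2, a prolyl hydroxylase that marks hypoxia-inducible factors for degradation, on chromosome 19. All of its exonic bases lie in a parent. It was listed at 0.295, 1.42 and 1.35 FPKM in shNC and at 3.25, 3.12 and 2.87 FPKM in shARHGEF2. Every shARHGEF2 library was above every shNC library, but the log2 fold change of 1.07 (SE 0.23) did not pass the adjusted test (adjusted p = 0.118, limma). With a pseudocount of 0.1 it was 1.73 (adjusted p = 0.230, limma). RAB4B was listed at 4.08, 2.12 and 2.92 FPKM and at 2.79, 2.94 and 2.77 FPKM, and EGLN2 at 10.6, 4.35 and 6.75 FPKM and at 6.01, 6.30 and 4.91 FPKM, with overlap of the groups for both. The sum of the locus had a log2 fold change of 0.08 (adjusted p = 0.908, limma), which turned to -0.13 without shNC replicate 2. The share was 1.97%, 18.0% and 12.2% in shNC and 27.0%, 25.2% and 27.2% in shARHGEF2. RAB4B is the only parent that 2 readthrough names share, and the other, MIA-RAB4B, was listed at 0 in every library but shARHGEF2 replicate 1, at 0.224 FPKM.

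DNAJC25-GNG10 (ENSG00000244115) links DNAJC25, a J-domain protein of the chaperone system, to GNG10, a gamma subunit of heterotrimeric G proteins, on chromosome 9. It was listed at 4.64, 5.45 and 4.65 FPKM in shNC and at 3.05, 3.30 and 2.75 FPKM in shARHGEF2. The groups did not overlap, with a log2 fold change of -0.55 (SE 0.12, adjusted p = 0.117, limma). GNG10 gave nearly the same value, a log2 fold change of -0.55 (SE 0.15, adjusted p = 0.162, limma), at 16.9, 18.4 and 16.5 FPKM and 8.89, 12.6 and 13.3 FPKM. DNAJC25 stayed between 0.913 and 2.51 FPKM with overlapping groups. The readthrough and its downstream parent had like differences here, and the share was 21.1% ± 0.556 in shNC and 19.1% ± 4.19 in shARHGEF2 (SD, n = 3 each; exact permutation p = 0.5).

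PTGES3L-AARSD1 (ENSG00000108825) was listed above both of its parents on average. AARSD1 encodes an editing enzyme for mischarged alanyl-tRNA, and PTGES3L resembles the co-chaperone p23. The readthrough was at 12.8, 9.55 and 12.4 FPKM in shNC and at 9.39, 1.08 and 2.46 FPKM in shARHGEF2. The 2 lowest values were both in shARHGEF2, while shARHGEF2 replicate 1 was close to shNC replicate 2. The log2 fold change was -1.57 (SE 0.61, adjusted p = 0.364, limma). Without shARHGEF2 replicate 1 it was -2.22 and passed the test (adjusted p = 0.0213, limma), while without shARHGEF2 replicate 2 it was -1.06 (adjusted p = 0.610, limma), and without each of the other libraries the adjusted p was 0.435 to 0.647 (limma). AARSD1 was highest in the same 2 libraries in which the readthrough was lowest, at 3.74, 7.36 and 7.65 FPKM in shARHGEF2 against 4.10, 5.12 and 2.15 FPKM in shNC. The sum was 17.4, 15.1 and 14.8 FPKM in shNC and 13.3, 8.68 and 10.4 FPKM in shARHGEF2, without overlap (log2 fold change -0.52, SE 0.15, adjusted p = 0.184, limma).

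The most abundant readthrough was NME1-NME2, which joins 2 adjacent genes for nucleoside diphosphate kinases. It was listed at 142.5, 111.4 and 113.6 FPKM in shNC and at 104.2, 104.7 and 105.1 FPKM in shARHGEF2, with a log2 fold change of -0.22 (SE 0.11, adjusted p = 0.419, limma). NME1 and NME2 had log2 fold changes of -0.22 and -0.16 (adjusted p = 0.333 and 0.414, limma), and all 3 genes were lower in every shARHGEF2 library than in any shNC library. The share of the readthrough was 22.9% ± 1.57 and 22.3% ± 0.538. NME1 and NME2 are close paralogs, so that the division of reads among the 3 gene models is uncertain. In RPS10-NUDT3, which joins a ribosomal protein of the small subunit to a phosphatase of inositol pyrophosphates, the readthrough was listed at 89.0, 42.3 and 36.8 FPKM in shNC and at 15.3, 51.2 and 25.8 FPKM in shARHGEF2. These values overlapped and were spread widely within each group, while RPS10 lay between 254.6 and 377.7 FPKM (readthrough log2 fold change -0.90, SE 0.56, adjusted p = 0.566, limma).

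The other abundant readthroughs also had overlapping groups. PMF1-BGLAP, from a kinetochore protein gene and the gene of the bone protein osteocalcin, was listed at 20.9, 19.2 and 20.1 FPKM in shNC and at 15.1, 21.7 and 19.3 FPKM in shARHGEF2. BGLAP did not exceed 0.618 FPKM, so that the readthrough and PMF1 made up nearly the whole locus. RNASEK-C17orf49, from the gene of ribonuclease kappa and its neighbour, was listed at 22.2, 22.0 and 18.7 FPKM and at 11.98, 21.8 and 21.3 FPKM. NDUFC2-KCTD14, from a subunit gene of respiratory complex I and its neighbour, was listed at 8.28, 8.90 and 10.2 FPKM and at 2.62, 7.82 and 8.84 FPKM. In these 2, shARHGEF2 replicate 1 was the lowest library and the rest were close together. BORCS8-MEF2B, from a lysosome-positioning subunit and a MADS-box transcription factor, was listed at 3.23, 4.42 and 6.01 FPKM and at 5.21, 5.37 and 5.32 FPKM. The adjusted p of these 4 readthroughs was between 0.577 and 0.779 (limma), and without shARHGEF2 replicate 1 the log2 fold changes of PMF1-BGLAP and RNASEK-C17orf49 turned from -0.11 and -0.22 to 0.026 and 0.044.

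The share of the summed FPKM was computed for the 88 loci with a summed mean of at least 0.5 FPKM. Its median was 5.80%, with 43 loci under 5% and 14 over 25%. Among tested readthroughs the largest shares belonged to BORCS8-MEF2B (61.6%), TVP23C-CDRT4 (58.9%), PMF1-BGLAP (56.7%), PTGES3L-AARSD1 (54.4%) and PKD1P6-NPIPP1 (39.3%). TVP23C-CDRT4 was listed at 2.40, 3.48 and 0.136 FPKM in shNC and at 2.43, 2.56 and 1.92 FPKM in shARHGEF2, so that shNC replicate 3 stood apart. Its log2 fold change of 0.35 (adjusted p = 0.840, limma) turned to -0.25 without that library. PKD1P6-NPIPP1 joins 2 pseudogenes with near-identical copies elsewhere on chromosome 16, and its level of 0.841 to 2.31 FPKM is uncertain for that reason. The share did not overlap between the groups at 5 of the 88 loci, or 5.68%. Levels did not overlap for 20.5% of all genes tested. A share is a different measure from a level, and no background was computed for shares, so whether 5 is few or many cannot be said. The share was higher in shARHGEF2 at SENP3-EIF4A1, RAB4B-EGLN2 and GET1-SH3BGR, and lower at HNRNPUL2-BSCL2 and STX16-NPEPL1. GET1-SH3BGR was listed at no more than 0.669 FPKM, HNRNPUL2-BSCL2 at no more than 0.911 FPKM and STX16-NPEPL1 at no more than 0.0374 FPKM with a share of at most 0.212%. These 3 shares rest on low values, none of the 3 readthroughs passed the filter, and they are named here after their values were seen.

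**Figure D3:**
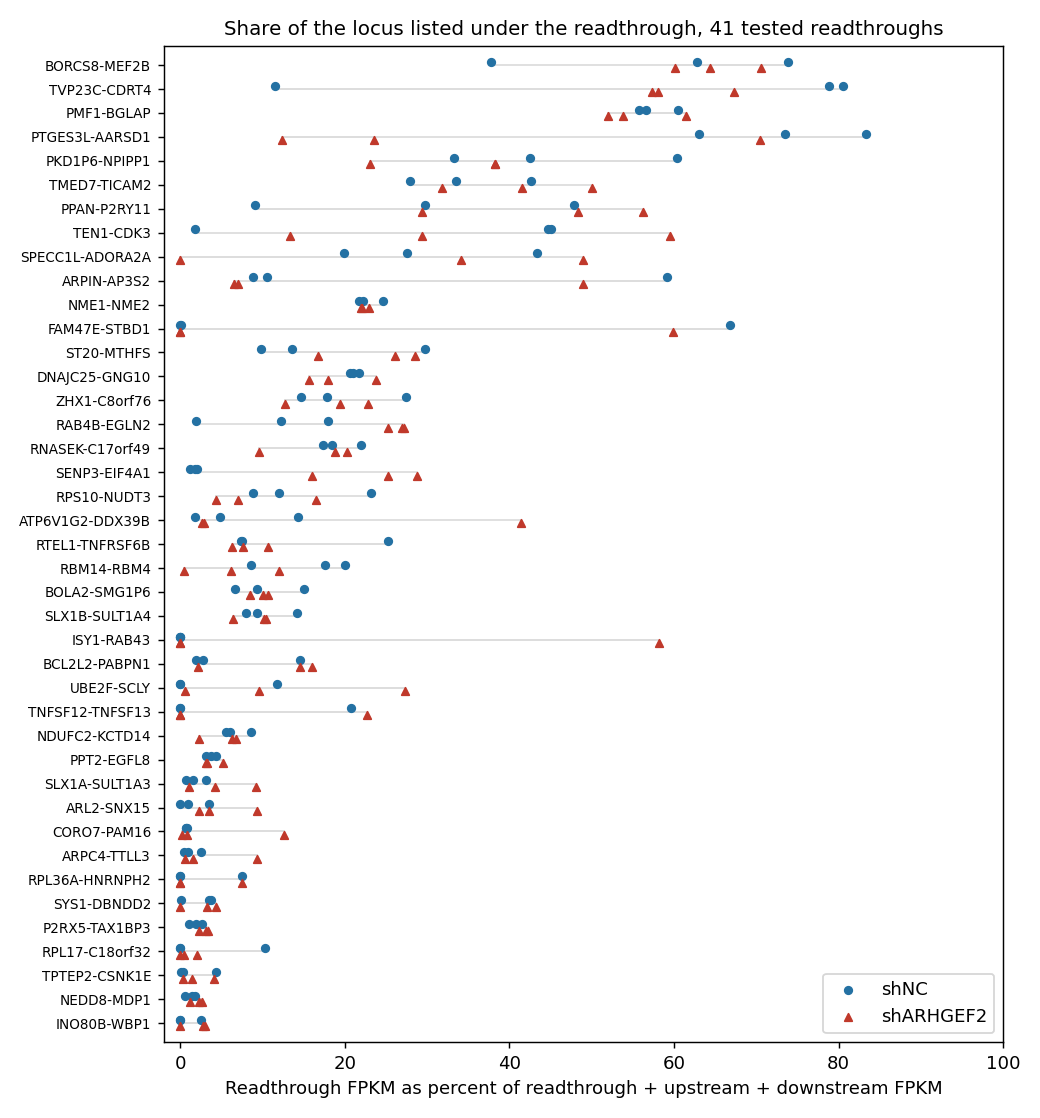
Readthrough FPKM as a percent of the summed FPKM of its locus (horizontal axis) for the 41 tested readthroughs, ordered by mean share; blue circles are shNC and red triangles shARHGEF2 libraries. SENP3-EIF4A1 and RAB4B-EGLN2 are the only rows with all red triangles to the right of all blue circles, and several rows, FAM47E-STBD1 and ISY1-RAB43 among them, hold libraries near 0 beside libraries above 50%.

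Whether a locus as a whole differed between the groups was asked by putting 1 summed value in the table in place of the 3 genes. Of the 97 summed loci, 88 passed the filter and 1 was called, ISY1-RAB43, against 48 of 12205 rows of this table (0.393%). At an unadjusted p under 0.05, 9 of the 88 passed, 2 higher and 7 lower, which is 10.2% against 13.7% of all rows. The 2 with higher values were ARL2-SNX15 and PPT2-EGFL8, at log2 fold changes of 0.29 and 0.26 (adjusted p = 0.202 and 0.252, limma). In each of them the upstream gene carried nearly the whole sum. ARL2, a small GTPase that acts in tubulin folding, was listed at 56.7, 53.5 and 61.2 FPKM in shNC and at 71.1, 70.4 and 66.5 FPKM in shARHGEF2. PPT2, a lysosomal thioesterase, was listed at 22.2, 23.2 and 24.2 FPKM and at 26.7, 28.8 and 29.9 FPKM.

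ISY1-RAB43 joins ISY1, a splicing factor, to RAB43, a Rab GTPase of the Golgi. Its sum was 18.3, 18.3 and 21.1 FPKM in shNC and 10.9, 8.87 and 11.8 FPKM in shARHGEF2, and it fell by 0.82 on the log2 scale (SE 0.12, adjusted p = 0.0463, limma). The call was lost in 12 of 15 alternatives, with the direction kept in each. RAB43 carried the difference, at 12.1, 10.9 and 13.1 FPKM in shNC and 4.88, 1.43 and 3.88 FPKM in shARHGEF2 (log2 fold change -1.66, SE 0.31, adjusted p = 0.117, limma). RAB43 passed without shARHGEF2 replicate 2 (log2 fold change -1.28, adjusted p = 0.0170, limma). The readthrough was listed at 0 in 5 libraries and at 5.16 FPKM in shARHGEF2 replicate 2, the library in which ISY1 was at 2.28 FPKM against 6.05 to 7.98 FPKM in the others and RAB43 was at its lowest. At CENPS-CORT, the sum had a log2 fold change of -0.81 (SE 0.14, adjusted p = 0.0546, limma), and CENPS, a histone-fold protein of the centromere and of Fanconi anaemia repair, had -0.85 (SE 0.13, adjusted p = 0.0501, limma). CENPS was listed at 4.09, 3.15 and 2.96 FPKM in shNC and at 1.52, 1.31 and 1.47 FPKM in shARHGEF2, while the readthrough stayed at or below 0.217 FPKM. ISY1-RAB43, CENPS-CORT, ARL2-SNX15 and PPT2-EGFL8 were chosen after their values were seen.

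**Figure D4:**
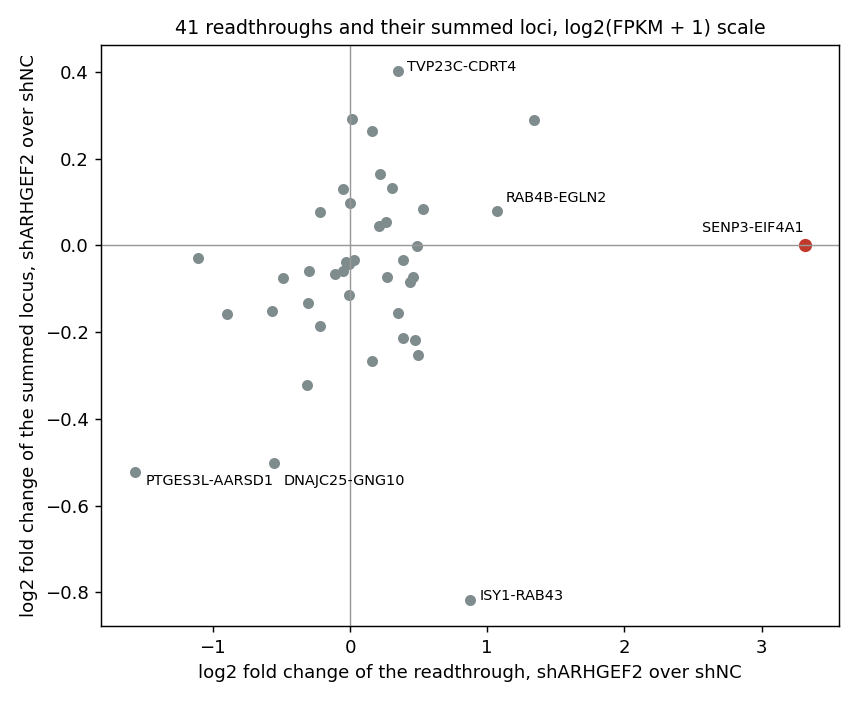
Log2 fold change (shARHGEF2 over shNC, log2(FPKM + 1) scale) of 41 readthroughs (horizontal axis) and of the summed FPKM of their loci (vertical axis); the called readthrough is red. SENP3-EIF4A1 lies at 3.32 on the first axis and 0.0014 on the second, and ISY1-RAB43 at 0.87 and -0.82.

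Libraries of the same group often divided a locus differently. The variance of the sum within groups was compared with the variances of the 3 genes added up; the ratio is under 1 where the genes of a locus vary against each other. It was under 1 for 33 of the 41 tested readthroughs, with a median of 0.685, and under 0.5 for 11. The lowest ratio was that of FAM47E-STBD1, 0.0534. Its readthrough was listed at 0, 0.0022 and 2.16 FPKM in shNC and at 0.0006, 0 and 1.97 FPKM in shARHGEF2. STBD1, a glycogen-binding membrane protein, was listed at 2.87, 2.94 and 1.07 FPKM and at 2.40, 3.08 and 1.32 FPKM, low where the readthrough was present. The sum lay between 2.40 and 3.29 FPKM in all 6 libraries. The ratio was 0.149 for PPAN-P2RY11, which joins a ribosome biogenesis factor to a purinergic receptor. That readthrough was listed at 7.74, 2.30 and 12.5 FPKM in shNC and at 11.1, 13.4 and 5.29 FPKM in shARHGEF2, while its sum stayed between 18.0 and 26.1 FPKM.

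A presence in some libraries and near absence in others was counted as under 0.05 FPKM in at least 2 libraries and at least 1 FPKM in another, and 12 readthroughs met it. They were RPL17-C18orf32, UBE2F-SCLY, INO80B-WBP1, TIMM23B-AGAP6, BIVM-ERCC5, FAM47E-STBD1, RPL36A-HNRNPH2, TNFSF12-TNFSF13, SYS1-DBNDD2, MSANTD3-TMEFF1, FMC1-LUC7L2 and ISY1-RAB43, named here after their values were seen. Among them, TIMM23B-AGAP6 has 0% of its exonic bases in AGAP6, as given above. Of the 12, 7 reached 1 FPKM in shNC replicate 3, 5 in shARHGEF2 replicate 3, 4 in shARHGEF2 replicate 2, and 2 or fewer in each of the other libraries. TNFSF12-TNFSF13, from the genes of the cytokines TWEAK and APRIL, was listed at 2.65 FPKM in shNC replicate 3, at 2.88 FPKM in shARHGEF2 replicate 3 and at 0 in the other 4 libraries. TNFSF12 was at 8.03 and 7.65 FPKM in those 2 libraries and at 15.1 to 18.9 FPKM in the rest. RPL36A-HNRNPH2, from a ribosomal protein gene and an RNA-binding protein gene, was listed at 9.62 FPKM in shNC replicate 3, at 9.49 FPKM in shARHGEF2 replicate 2 and at 0 elsewhere. HNRNPH2 was at 1.06 and 2.79 FPKM in those 2 and at 11.6 to 21.0 FPKM elsewhere. At both loci the readthrough appeared in a library of each group, with a parent lower in the same libraries.

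**Figure D5:**
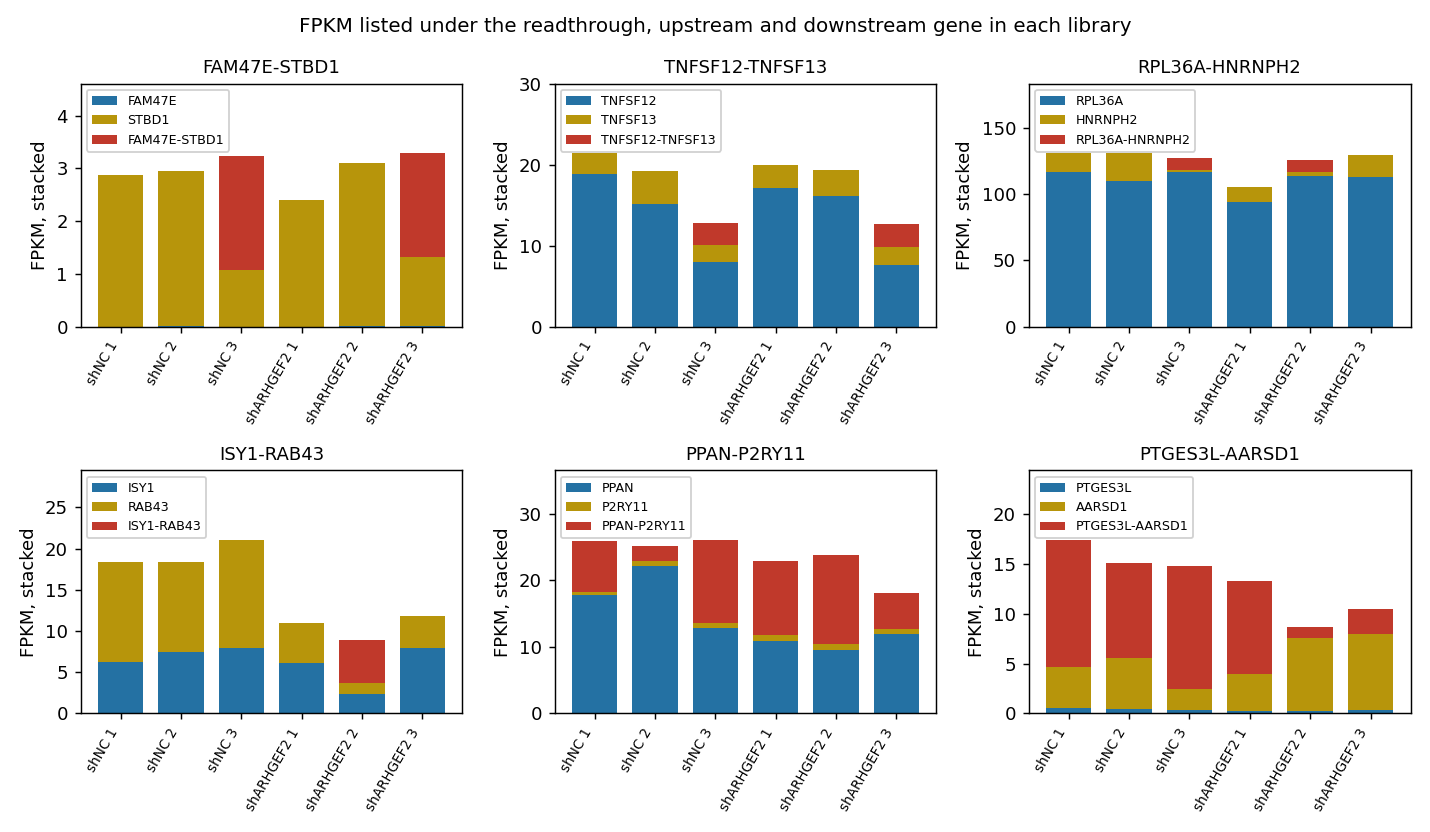
Stacked FPKM of the upstream gene (blue), downstream gene (ochre) and readthrough (red) in each of the 6 libraries at 6 loci, vertical axes from 0. The red part of FAM47E-STBD1 and TNFSF12-TNFSF13 is seen only in shNC replicate 3 and shARHGEF2 replicate 3, and that of ISY1-RAB43 only in shARHGEF2 replicate 2 (5.16 FPKM).

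Of the 41 tested readthroughs, 22 had a difference in mean FPKM opposite in sign to that of the sum of their parents. The other 19 had the same sign. The median log2 fold change of the 41 readthroughs was 0.16, with 24 above 0 and 17 below, against a median of -0.0016 over all genes tested. The filter was on the mean over all libraries, so a readthrough could pass it through 1 group or 1 library alone. ISY1-RAB43 passed through shARHGEF2 replicate 2 alone, being listed at 0 in the other 5 libraries. The part of the filter in this median and split was not tested, and no general rise of readthroughs is read from them. The tested upstream parents had a median of -0.02 and the downstream parents one of -0.04. At an unadjusted p under 0.05, 8 of 73 upstream parents passed, 3 higher and 5 lower (10.96%), and 9 of 61 downstream parents passed, all 9 lower (14.8%), against 13.7% of all genes. Beside ARL2, PPT2 and CENPS, the upstream parents were NME1, PPAN, TVP23C, a protein of the Golgi, ATP5MF, a subunit of ATP synthase, and PRR5, a component of mTOR complex 2. Beside EIF4A1, GNG10 and RAB43, the downstream parents were SCLY, an enzyme of selenium recycling, PABPN1, CPT1B, a carnitine palmitoyltransferase, RPP21, a subunit of ribonuclease P, CHMP3, a subunit of the ESCRT-III membrane complex, and MRPS24, a protein of the mitochondrial ribosome. Of these 11 additional parents, PPAN had the lowest log2 fold change (-0.63, adjusted p = 0.199, limma) and TVP23C the highest (0.31, adjusted p = 0.329, limma).

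The machinery that ends transcription and the pathway that degrades many readthrough RNAs were listed alongside. Of 33 genes of 3′ end processing and termination, 32 passed the filter and 0 were called by limma. At an unadjusted p under 0.05, 0 were higher and 3 lower (9.38%, against 13.7% of all genes), with a median log2 fold change of -0.06 against -0.0016 over all genes tested. Of the 32, 11 had a log2 fold change above 0 and 21 below, against 6102 above and 6189 below over all genes tested. The 3 were CSTF2, a subunit of the cleavage stimulation factor that binds the RNA downstream of the poly(A) site (-0.30, adjusted p = 0.348, limma), PABPN1, the nuclear poly(A)-binding protein (-0.30, adjusted p = 0.279, limma), and PPP1R10, a regulator of the phosphatase PP1 in termination (-0.75, adjusted p = 0.2997, limma). PABPN1 is also the downstream parent of BCL2L2-PABPN1, which was chosen after its values were seen and whose readthrough was listed at 0.530, 0.428 and 3.60 FPKM in shNC and at 0.474, 3.19 and 3.04 FPKM in shARHGEF2. Of 19 genes of nonsense-mediated decay, 18 passed the filter and 0 were called by limma. CASC3, a core protein of the exon junction complex, was the only 1 of them at an unadjusted p under 0.05, or 5.56% against 13.7% of all genes (log2 fold change -0.30, adjusted p = 0.3001, limma), and the median was 0.01 with 9 genes above 0 and 9 below.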

How the data were processed

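The authors deposited 1 table with FPKM per gene for 3 shNC and 3 shARHGEF2 HepG2 libraries, 1 column per library. The labels describe stranded poly(A) libraries with molecular identifiers. The submitters' processing notes name cutadapt 1.9, HISAT2 2.0.4, UMI-tools, StringTie 1.3.4d, DESeq2, edgeR and the build hg19, without giving their roles. Columns with the authors' own fold changes and p-values were not used. The values hold no read counts, so no counting interval was computed, and the split of reads between gene models sharing exons is the authors'.

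Genes averaging 0.5 FPKM or more across all 6 libraries were fitted on the scale log2(FPKM + 1), using limma 3.58.1 (R 4.3.3) with trended, robust variances (statmod 1.5.0), two-sided, with Benjamini-Hochberg adjustment over all genes tested and a threshold of 0.05. In a second fit the readthrough and parent rows were replaced by 1 summed row per locus. Single values were also compared by exact permutation over libraries, computed directly in Python (smallest p 0.1). Structures and junction sequences were read from GENCODE 29 by Ensembl identifier, which placed 97.8% of the table's genes; the coordinates are on GRCh38 and were not taken from the table. Tables were handled in Python 3.11.15 with pandas 2.3.3 and numpy 2.4.6, and plots drawn with matplotlib 3.10.9. The fit was tested on simulated data. Other pseudocounts, filters, scalings and variance models, a replicate block and each library left out were tried, as were weights by mean transcript length for the share of SENP3-EIF4A1. The length-weighted sums and the weights by longest transcript were a later addition, made with the values known.

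The members, lists and tests were chosen with earlier results of these data known. The loci named are SENP3-EIF4A1, readthroughs with an unadjusted p under 0.05, the 10 with the highest mean FPKM, those with a called parent (0), the 5 tested with the largest share of their locus, tested readthroughs that share a parent with another, and ARHGEF2. Other loci are marked as chosen after their values were seen. The labels number the libraries but name no pairing, so the reported fit held no block. Residuals of libraries with the same number correlated at 0.184, 0.159 and -0.105. Libraries with different numbers were not correlated for comparison, so these values cannot say whether the numbers pair the libraries.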

Additional observations from a re-analysis of the deposited data

How the results depend on the processing

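SENP3-EIF4A1 kept its direction under all 13 alternatives, with log2 fold changes from 3.10 to 3.73, and stayed called under 11 of them. It was not called with every gene above 0 tested (3.32, adjusted p = 0.155, limma), where 0 readthroughs were called and 8 of 97 passed unadjusted beside 2123 of all 27605 genes, or with the replicate block, and each library left out in turn gave 3.10 to 3.61 with adjusted p from 1.35e-04 to 0.0487 (limma). Of 13 other readthroughs recomputed in the same way, 9 kept the sign of their fold change. ISY1-RAB43, among these, was not tested with 1 FPKM in 3 libraries or without shARHGEF2 replicate 2, where it is listed at 0 throughout. With a library left out, log2 fold changes were -0.22 to 0.026 for PMF1-BGLAP and -0.36 to 0.044 for RNASEK-C17orf49 (positive without shARHGEF2 replicate 1), -0.074 to 0.94 for PPAN-P2RY11 (negative without shNC replicate 2) and -0.25 to 0.74 for TVP23C-CDRT4 (negative without shNC replicate 3). PTGES3L-AARSD1 was added without shARHGEF2 replicate 1, so that leaving out libraries gave 1 to 2 readthroughs called.

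With the library number as a replicate block, 0 genes were called by limma (1976 at an unadjusted p under 0.05), 0 of the readthroughs (4 unadjusted) and 0 summed loci (10 unadjusted), and SENP3-EIF4A1 stood at 3.32 with an adjusted p of 0.124. The numbers were not shown to pair the libraries.

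Over all genes, 34 were called in the reported fit, 1 with every gene above 0 tested, 54 with a filter of 1 FPKM in 3 libraries, 19 after quantile normalization, 6 after median centring and 7 without trended or robust variances. Leaving out a library gave 6 to 102, the highest without shNC replicate 3.

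The count of summed loci called was 1 in the reported fit. It was 0 with every gene above 0 tested (11 unadjusted, limma), after quantile normalization (11), after median centring (6), without trended or robust variances (8), and with FPKM weighted by mean transcript length (10). It was 2 with the filter of 1 FPKM in 3 libraries and 0 to 1 when a library was left out. The cause was not tested.

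The sum of the SENP3-EIF4A1 locus changed sign around 0, with -0.027 after quantile normalization, -0.0026 after median centring and -0.046 to 0.0505 with a library left out. The difference in its share, 21.6 percentage points, was 46.8 with mean and 29.8 with longest transcript lengths as weights, and 18.9 to 25.3 with a library left out. The sum of RAB4B-EGLN2 turned from 0.08 to -0.13 without shNC replicate 2, and leaving out a library gave up to 0.29.

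Readthroughs under 0.5 FPKM, 56 of the 97, were not tested, and FPKM give no count behind a value.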
